A study of Mus musculus with 24 samples.

Results

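The striated muscle actins and the sarcomeric myosin light chains were followed in differentiating C2C12, an established line of mouse myoblasts whose cells join into myotubes once serum is lowered. The members were 8 genes chosen by name: the actins Acta1 and Actc1, the essential light chains Myl1, Myl3, Myl4 and Myl6b, and the regulatory light chains Myl2 and Mylpf. Of the 14693 genes in the count table, 7 were members. Myl3, the essential light chain of slow muscle and the cardiac ventricle, had no row and was not analysed here. All 7 passed the filter on low counts and were tested among 12994 genes.

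Every library came from wild type C2C12 cells that were kept in 10% fetal bovine serum and then differentiated in 2% horse serum. During differentiation the cells received a vehicle, the polyunsaturated fatty acid linoleic acid (LA) at 100 µM bound to bovine serum albumin, or recombinant mouse ANGPTL4, a secreted inhibitor of lipoprotein lipase, at 10 ng/mL. Cells were collected at day 2 or day 6, which gave 6 groups of 4 libraries. The labels describe 1 cell line, name the control only as vehicle, and do not say whether the 4 libraries of a group came from separate cultures, so p-values measure the spread between these libraries. Whether the vehicle held albumin is not given, and the same vehicle libraries were compared with both treatments. The question, by the study's title, concerns muscle differentiation under LA and the ANGPTL4 it induces.

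Sarcomeric actin is the thin filament on which myosin pulls. Mammals have 2 striated isoforms, the skeletal form from Acta1 and the cardiac form from Actc1, and developing skeletal muscle makes the cardiac form before the skeletal one comes to dominate. Each myosin heavy chain carries an essential and a regulatory light chain on its neck. Fast skeletal fibres use Myl1 with Mylpf, slow fibres and ventricles use Myl3 with Myl2, and Myl4 is the essential chain of embryonic muscle and the atrium. Myl6b encodes an essential light chain found in slow skeletal muscle and in non-muscle cells.

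The actin genes are classical targets of serum response factor, which binds the CArG box, and their start regions are shown because the members were compared there for short sequence motifs. The sequences are RefSeq windows of 250 bases before to 50 bases after the annotated start, on mouse build GRCm38.p6, which is not the build of the counts. Acta1 lies at chr8:123894726-123895025, Actc1 at chr2:114052826-114053125 and Myl1 at chr1:66945007-66945306, all on the minus strand. Myl1 is printed as a light chain whose searched window held no CArG box. Each is written 5′ to 3′ on the gene's strand, with capitals on CArG boxes and on TATAAA in either orientation.
Acta1: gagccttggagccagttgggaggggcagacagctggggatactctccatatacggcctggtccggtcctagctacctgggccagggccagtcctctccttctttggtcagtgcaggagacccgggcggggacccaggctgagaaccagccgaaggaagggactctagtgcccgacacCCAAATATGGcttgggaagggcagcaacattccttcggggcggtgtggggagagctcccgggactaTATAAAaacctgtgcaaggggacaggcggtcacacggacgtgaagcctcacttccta
Actc1: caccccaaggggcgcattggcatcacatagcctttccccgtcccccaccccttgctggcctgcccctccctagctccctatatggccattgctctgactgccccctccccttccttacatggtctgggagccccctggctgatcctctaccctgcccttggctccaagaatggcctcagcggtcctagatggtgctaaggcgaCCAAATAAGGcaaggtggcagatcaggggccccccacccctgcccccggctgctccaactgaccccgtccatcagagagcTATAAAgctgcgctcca
Myl1: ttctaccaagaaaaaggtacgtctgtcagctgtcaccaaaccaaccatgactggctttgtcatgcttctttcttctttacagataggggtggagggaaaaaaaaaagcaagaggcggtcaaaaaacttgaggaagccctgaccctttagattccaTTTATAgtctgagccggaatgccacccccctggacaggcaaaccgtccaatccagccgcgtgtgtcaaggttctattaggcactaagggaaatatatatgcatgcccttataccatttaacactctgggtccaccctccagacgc

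Both actin windows held a CArG box, CCAAATATGG at bases -73 to -64 from the start of Acta1 and CCAAATAAGG at bases -47 to -38 of Actc1. Neither box overlapped another of the motifs searched. Of the light chains, the Myl3 window held one and those of Myl1, Myl2 (2 windows), Myl4, Mylpf and Myl6b held none. Only 1 window of Myl1 was searched, although its proteins come from alternative starts. The CArG box was present in 1.63% of 32851 promoter windows searched in the same way on both strands. No member window held the MEF2 site, which 3.19% of all windows held. The E-box CANNTG, which myogenic factors bind, was present in 72.3% of all windows and in those of every member except Myl4. The coding gene nearest to Myl4 was Cdc27, on the opposite strand and 43 bases away, and no other start of Myl4 was searched. The TEAD motif CATTCC (14.7% of all windows) was found in Acta1, Myl1 and Myl3. TATAAA (13.6% of all windows) was found in Acta1, Actc1, Myl1 and 1 of the Myl2 windows. It lay at bases -7 to -2 in Acta1, and at bases 34 to 39, after the annotated start, in Actc1. All positions are counted from annotated starts, which were not checked against the reads. These matches describe letters in a window and say nothing of occupancy.

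Library totals ran from 6100684 to 25049912 counts. Day 2 LA replicate 3 and day 6 ANGPTL4 replicate 1 stood apart from their groups on the second principal component, and results that rest on them are given with and without them. On that component day 2 LA replicate 3 (-19.3) lay in the range of day 2 ANGPTL4 replicates 1 to 3 (-19.7 to -15.2). Day 2 ANGPTL4 replicate 4 (-4.61) lay nearer to the other day 2 LA libraries (1.32 to 4.07) than to those replicates. Below, the 2 libraries that stood apart are day 2 LA replicate 3 and day 6 ANGPTL4 replicate 1. The myotube markers Ckm, Des, Myog, Mymk, Mymx and Chrna1 were all present, with summed levels of 3548 to 5299 CPM over the 24 libraries. Of 9 cardiac markers, Nppa, Ryr2, Hcn4 and Myl7 had no row, and the 5 others summed to 28.6 to 54.0 CPM. CPM is a gene's count per 1000000 counts of its library, with totals scaled by the trimmed mean of M-values (TMM). Reads came from transcript ends, so the 2 proteins made from Myl1 by alternative starts cannot be told apart. The strand setting of the counting is not given in the sources used here, and Acta1, Actc1, Myl2 and Myl4 overlap genes of the opposite strand, of which 1 had a row (Gm11665 at Myl4, at most 14 counts). Within the last 500 bases of their transcripts, Acta1 shares a run of 77 identical bases with Actb, and the other members share at most 31 with a relative, so reads from such runs could be split or dropped. In bulk libraries, fewer myotubes and less RNA in each myotube cannot be told apart.

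**Figure D1:**
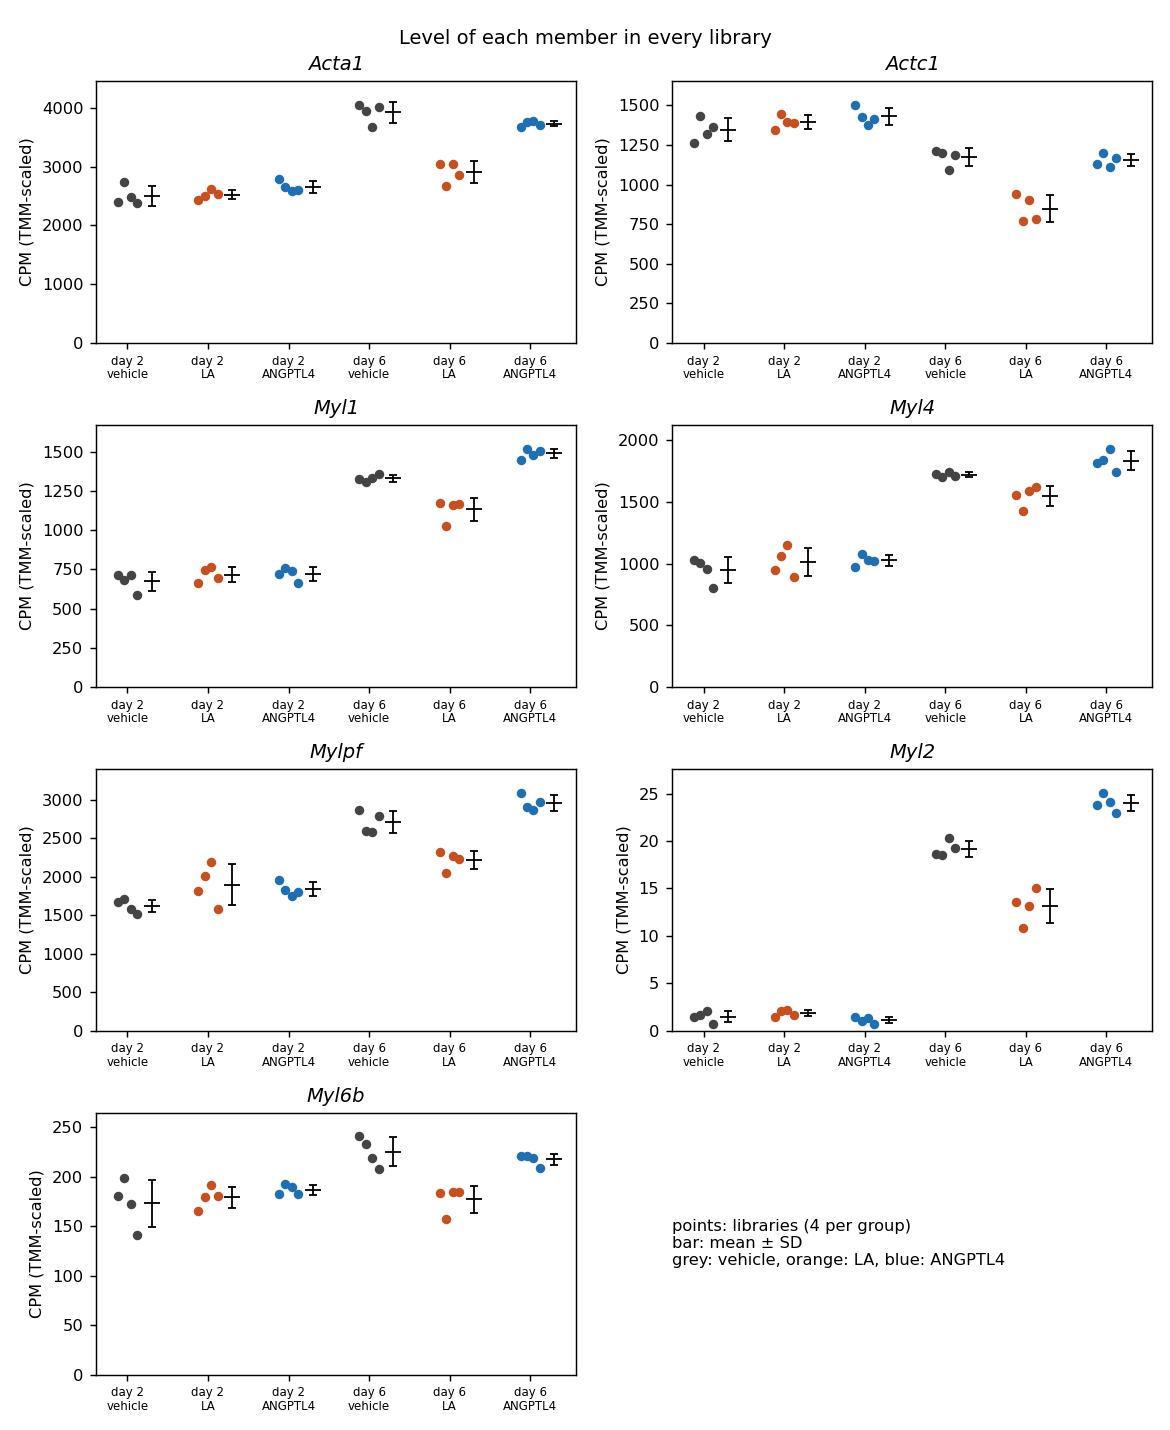
Level of each member in every library, in CPM with TMM scaling on axes that start at 0. Points are the 4 libraries of a group and bars are the mean ± SD. Actc1 was the member with lower levels at day 6 than at day 2 in vehicle. The day 6 LA libraries lay below the day 6 vehicle libraries for all 7 genes, and how many of all genes did so was not counted. The test called 17.2% of all genes in that comparison.

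The first question was how the members moved between day 2 and day 6 in vehicle. Acta1, Myl1, Myl4, Mylpf, Myl2 and Myl6b rose, and Actc1 fell. The 7 members ran from a 13.1-fold rise (Myl2) to a fall of 12.9% (Actc1), with a median log2 fold change of 0.74 against 0.019 over all genes. Genes were called at a Benjamini-Hochberg adjusted p under 0.05 in edgeR's quasi-likelihood test, which called 45.6% of all genes tested in this comparison, against 6 members up and 1 down.

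Acta1 stood at 2393, 2742, 2485 and 2385 CPM in the day 2 vehicle libraries and at 4052, 3949, 3674 and 4021 CPM at day 6. Every day 6 library was above every day 2 library. The rise was 1.57-fold (log2 fold change 0.65, SE 0.0515, edgeR adjusted p = 4.90e-12). Actc1 ran the other way, at 1263, 1435, 1320 and 1363 CPM at day 2 and 1214, 1200, 1089 and 1186 CPM at day 6. The groups did not overlap, although the lowest day 2 library lay close to the highest day 6 library. The log2 fold change of Actc1 was -0.20 (SE 0.0554, edgeR adjusted p = 0.00393).

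The fast essential chain Myl1 had 714, 682, 716 and 588 CPM at day 2 and 1330, 1307, 1334 and 1359 CPM at day 6. It rose 1.97-fold (log2 fold change 0.98, SE 0.0582, edgeR adjusted p = 5.47e-15). Its embryonic counterpart Myl4 rose as well, from 948 ± 104 CPM to 1720 ± 19.9 CPM (SD, n = 4; log2 fold change 0.86, SE 0.0675, edgeR adjusted p = 6.44e-12). For both essential chains the groups did not overlap.

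Mylpf, the fast regulatory chain, rose from 1622 ± 82.8 CPM to 2709 ± 143 CPM (SD, n = 4; log2 fold change 0.74, SE 0.0667, edgeR adjusted p = 9.69e-11). The slow and cardiac regulatory chain Myl2 was near the limit of counting at day 2, with 16, 24, 21 and 9 counts, or 1.41, 1.63, 2.11 and 0.742 CPM. At day 6 it had 227, 186, 251 and 186 counts, or 18.6, 18.5, 20.3 and 19.3 CPM. Its log2 fold change of 3.71 (SE 0.160, edgeR adjusted p = 1.94e-18) was the highest of the 7 members, and it stayed the member with the lowest counts in every group. Myl6b rose the least, from 173 ± 24.1 CPM to 225 ± 14.5 CPM (SD, n = 4; log2 fold change 0.38, SE 0.0702, edgeR adjusted p = 5.61e-05).

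With LA, the same interval gave 5 members up and 1 down (43.8% of all genes called), and with ANGPTL4 6 up and 1 down (42.2% called). In the LA arm Acta1 rose by 0.21 on the log2 scale (SE 0.0513, edgeR adjusted p = 0.00155) and Actc1 fell by 0.72 (SE 0.0557, edgeR adjusted p = 3.74e-12). Mylpf rose by 0.22 (SE 0.0663, edgeR adjusted p = 0.00658), a call that was lost without day 2 LA replicate 4 (0.14, edgeR adjusted p = 0.0617) and in a fit of the 2 compared groups alone (0.21, edgeR adjusted p = 0.0602). Myl6b had 165 to 191 CPM at day 2 and 157 to 184 CPM at day 6, a log2 fold change of -0.012 (95% interval -0.16 to 0.13, edgeR adjusted p = 0.904). In the ANGPTL4 arm Myl2 rose 20.3-fold, Myl1 2.07-fold and Acta1 1.41-fold, while Actc1 fell by 19.4% (edgeR adjusted p = 1.37e-20, 8.12e-16, 2.04e-09 and 2.66e-05). The ANGPTL4 call for Myl6b (log2 fold change 0.22, edgeR adjusted p = 0.0125) was lost without day 2 ANGPTL4 replicate 4 (0.19, edgeR adjusted p = 0.0543) and with library totals alone (0.15, edgeR adjusted p = 0.102). The direct tests of how the arms differ are the changes of the treatment effect given below for each treatment.

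**Figure D2:**
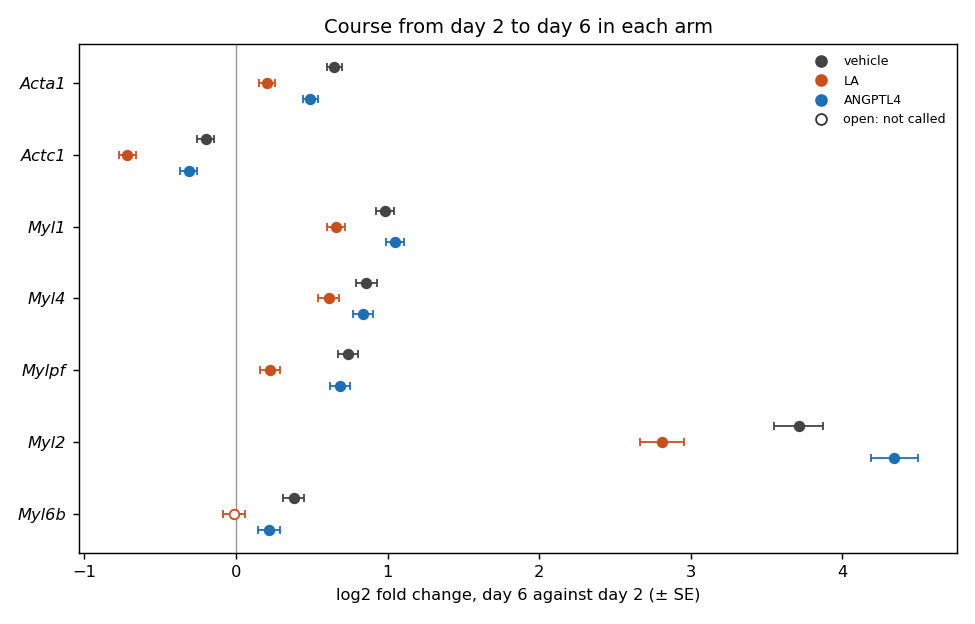
Log2 fold change of day 6 against day 2 in vehicle, LA and ANGPTL4 cells, from the fit over all genes, with bars for 1 SE. Filled points passed an adjusted p under 0.05 and the open point (Myl6b with LA, -0.012) did not. Actc1 was below 0 in each arm, from -0.20 in vehicle to -0.72 with LA.

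The 2 actins moved apart between the days, which was read as a ratio inside each library, where scaling cancels. A ratio of 3′ counts depends on how well each transcript end is captured, so only its change between groups is read. The log2 ratio of Actc1 to Acta1 counts was -0.89 ± 0.0587 in day 2 vehicle and -1.74 ± 0.0192 in day 6 vehicle (SD, n = 4). It was -0.85 ± 0.0494 at day 2 and -1.78 ± 0.0701 at day 6 with LA, and -0.89 ± 0.0104 and -1.70 ± 0.0503 with ANGPTL4. The days did not overlap in any arm. Day 6 minus day 2 was -0.85 in vehicle, -0.93 in LA cells and -0.80 in ANGPTL4 cells, each with p = 0.0286 in a two-sided exact permutation test. With 4 libraries against 4, 0.0286 is the smallest p this test can give. After adjustment over 36 ratio and share tests, 16 of which had that p, it became 0.0643, so none of the 36 passed 0.05.

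Within a day the actin ratio moved less. LA and vehicle at day 6 differed by -0.036 (exact permutation p = 0.429, adjusted 0.514), with LA lower in 11 of 16 pairs of libraries. Over the 24 libraries the log2 levels of Acta1 and Actc1 had a Pearson r of -0.30, and after each group's mean was removed r was 0.80. These values describe libraries that share depth and scaling.

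The light chain pairs were read in the same way. Myl2 relative to Mylpf was higher at day 6 than at day 2 by 3.01 log2 units in vehicle, 2.58 in LA cells and 3.73 in ANGPTL4 cells (exact permutation p = 0.0286, adjusted 0.0643, for each). Myl4 relative to Myl1 was 0.49 ± 0.0703 at day 2 and 0.37 ± 0.0242 at day 6 in vehicle (SD, n = 4), a difference of -0.12 with no overlap between the days (exact permutation p = 0.0286, adjusted 0.0643). Its difference between the days was -0.21 in ANGPTL4 cells, also without overlap (exact permutation p = 0.0286, adjusted 0.0643), and -0.044 in LA cells, where the days overlapped (exact permutation p = 0.400, adjusted 0.497). At day 6 the Myl4 to Myl1 ratio was higher with LA than with vehicle by 0.082 and higher with LA than with ANGPTL4 by 0.15, without overlap in either case (exact permutation p = 0.0286, adjusted 0.0643, for both).

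**Figure D3:**
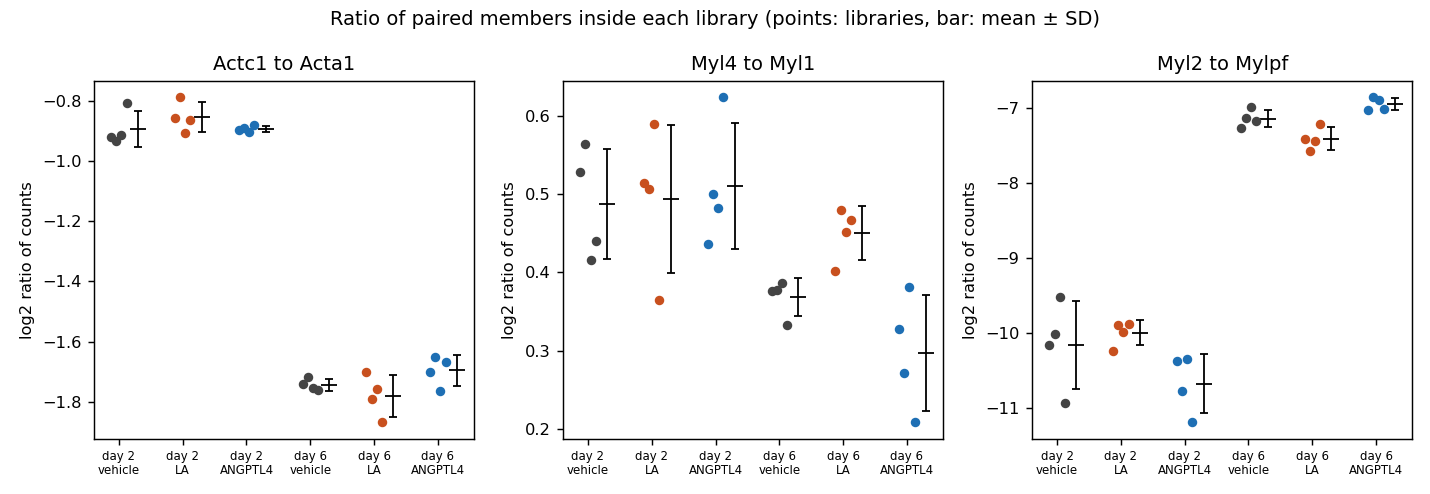
Log2 ratio of counts inside each library for Actc1 to Acta1, Myl4 to Myl1 and Myl2 to Mylpf, by group. Points are libraries and bars the mean ± SD of 4, and the axes do not start at 0. The actin ratio lay between -0.93 and -0.79 at day 2 and between -1.87 and -1.65 at day 6.

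The day 6 cultures were then compared between the fatty acid and vehicle. Acta1, Actc1, Myl1, Myl2, Mylpf and Myl6b fell, by 15.0% (Myl1) to 31.5% (Myl2). Myl4 was lower in all 16 pairs of libraries but did not pass. The test called 17.2% of all genes here, against 6 members down and 0 up, and the median log2 fold change was -0.35 over the members and -0.0096 over all genes. For each of the 7 members the LA libraries lay wholly below the vehicle libraries, and how many of all genes did so was not counted.

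With LA, Acta1 had 3053, 2666, 3044 and 2865 CPM at day 6, against the vehicle values above of at least 3674 CPM. Its log2 fold change was -0.43 (SE 0.0514, edgeR adjusted p = 1.90e-07). Actc1 had 940, 770, 900 and 785 CPM with LA, against at least 1089 CPM in vehicle. It fell by 27.6% (log2 fold change -0.47, SE 0.0556, edgeR adjusted p = 2.01e-07), while Acta1 fell by 25.9%.

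Myl2 had 13.6, 10.8, 13.1 and 15.1 CPM with LA at day 6, all below the lowest vehicle library. Its log2 fold change was -0.54 (SE 0.111, edgeR adjusted p = 0.000535). Mylpf stood at 2319, 2057, 2275 and 2232 CPM with LA and at 2869, 2595, 2582 and 2788 CPM in vehicle (log2 fold change -0.29, SE 0.0664, edgeR adjusted p = 0.00207). Both regulatory chains fell without overlap between the groups.

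Among the essential chains, Myl6b fell from 225 ± 14.5 to 177 ± 13.6 CPM (SD, n = 4; log2 fold change -0.35, SE 0.0704, edgeR adjusted p = 0.000619). Myl1 fell from 1333 ± 21.6 to 1133 ± 72.1 CPM (SD, n = 4; log2 fold change -0.23, SE 0.0576, edgeR adjusted p = 0.00360). Without day 6 LA replicate 2, the library with the lowest Myl1 level of its group, the value was -0.18 and the call was lost (edgeR adjusted p = 0.0548). Myl4 had 1552, 1429, 1588 and 1618 CPM with LA and 1726, 1698, 1745 and 1712 CPM in vehicle. Its log2 fold change was -0.15 (95% interval -0.29 to -0.017, edgeR adjusted p = 0.122), and it passed when only the 2 compared groups were fitted (-0.14, edgeR adjusted p = 0.0199).

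Summed over the 7 members, the share of a library's counts was 1.09 ± 0.0337% in day 6 vehicle and 0.884 ± 0.0451% with LA (SD, n = 4; exact permutation p = 0.0286, adjusted 0.0643). The groups did not overlap. Beside this, the 6 myotube markers all fell with LA at day 6, their sum running from 3548 to 3959 CPM against 4762 to 5299 CPM in vehicle. Of 6 reserve cell and myoblast markers 4 rose and 1 fell (541 to 639 CPM against 453 to 504 CPM), and of 7 fibroblast markers tested 5 rose and none fell (10477 to 12568 CPM against 8474 to 9720 CPM). Most of the fibroblast sum was Col3a1, with a mean of 9433 of 11438 CPM with LA and 6961 of 8936 CPM in vehicle. The fibroblast marker Thy1 had no row. Of 3 cardiac markers tested 1 fell, and of 5 smooth muscle markers tested none passed, where 17.2% of all genes were called. None of the 6 adipocyte markers had a row, and the endothelial markers Cdh5 and Tek had 0.598 to 1.35 CPM in the day 6 vehicle and LA libraries, summed, and were not tested. The part of these cell types in the members' falls was not tested.

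At day 2 LA gave another picture. Only Mylpf passed, in the opposite direction, while 15.1% of all genes were called. It had 1820, 2012, 2191 and 1577 CPM with LA against 1667, 1709, 1588 and 1523 CPM in vehicle, so the groups overlapped. The log2 fold change of 0.23 (SE 0.0664, edgeR adjusted p = 0.0192) was 0.14 without day 2 LA replicate 3, the library with the highest value (edgeR adjusted p = 0.180), and the call was also lost without day 2 LA replicate 2 or day 2 vehicle replicates 3 or 4 (edgeR adjusted p = 0.0718, 0.0526 and 0.0724). The other 6 members had log2 fold changes from 0.011 (Acta1, 95% interval -0.093 to 0.12) to 0.35 (Myl2, -0.099 to 0.81), and none passed.

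The change of the LA effect from day 2 to day 6 was tested directly, in the same fit. It was below 0 for Acta1 (-0.44, SE 0.0726), Actc1 (-0.52, SE 0.0783), Myl1 (-0.32, SE 0.0815), Myl2 (-0.90, SE 0.247), Mylpf (-0.52, SE 0.0939) and Myl6b (-0.39, SE 0.0992). The edgeR adjusted p ran from 3.58e-05 (Actc1) to 0.0102 (Myl2) over those 6 genes, in a comparison that called 19.7% of all genes. Myl4 (-0.25, 95% interval -0.44 to -0.055, edgeR adjusted p = 0.0623) did not pass, except without day 2 LA replicate 4 (-0.28, edgeR adjusted p = 0.0287). The Myl2 call was lost without day 2 LA replicate 3, one of the 2 libraries that stood apart (-0.77, edgeR adjusted p = 0.0509).

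**Figure D4:**
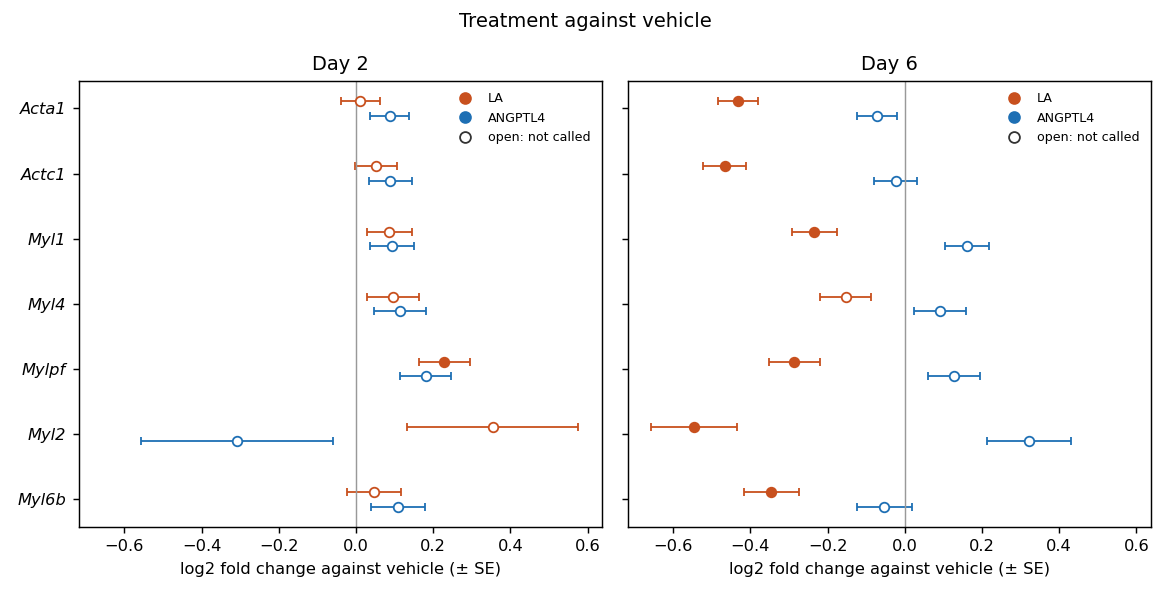
Log2 fold change against vehicle at day 2 and day 6 for LA and ANGPTL4, with bars for 1 SE. Filled points passed an adjusted p under 0.05 and open points did not. At day 6 the LA points ran from -0.54 to -0.15 and the ANGPTL4 points from -0.072 to 0.32, against the same vehicle libraries.

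ANGPTL4 was compared with vehicle to ask whether the protein alone moved the members. No member was called at day 2, where 9.82% of all genes were called, or at day 6, where 0.0231% (3 genes) were called by edgeR. At an unadjusted p under 0.05, 1 of the 7 members (Mylpf) was found at day 2, beside 3389 of all 12994 genes, and 2 of the 7 (Myl1 and Myl2) at day 6, beside 1513 of all 12994. DESeq2 and limma-voom called no member at either day, and DESeq2 gave Myl2 no adjusted p at day 6.

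At day 6 Myl1 had 1449, 1520, 1482 and 1508 CPM with ANGPTL4, all above the highest vehicle library at 1359 CPM. The log2 fold change was 0.16 (95% interval 0.044 to 0.28, edgeR adjusted p = 0.241). A fit of the 2 compared groups alone passed it (0.17, edgeR adjusted p = 0.0384). Myl2 had 23.8, 25.1, 24.1 and 23.0 CPM with ANGPTL4, also all above vehicle, with a log2 fold change of 0.32 (95% interval 0.10 to 0.54, edgeR adjusted p = 0.208). Acta1 had 3680 to 3778 CPM and a log2 fold change of -0.072 (95% interval -0.18 to 0.033), which overlapped vehicle. The interval of Actc1 was -0.14 to 0.089, of Myl4 -0.046 to 0.23, of Mylpf -0.0073 to 0.26 and of Myl6b -0.20 to 0.092.

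At day 2 Mylpf had 1962, 1830, 1751 and 1806 CPM with ANGPTL4, above every vehicle library. Its log2 fold change was 0.18 (95% interval 0.045 to 0.32, edgeR adjusted p = 0.0778), and it passed with library totals alone (0.20, edgeR adjusted p = 0.0469). The other 6 members had log2 fold changes from -0.31 (Myl2, 95% interval -0.82 to 0.20) to 0.11 (Myl4, -0.024 to 0.25). No member passed in the change of the ANGPTL4 effect from day 2 to day 6, where edgeR called 0.277% of all genes, DESeq2 and limma-voom called no member, and 2 of the 7 members (Acta1 and Myl2) had an unadjusted p under 0.05, beside 2415 of all 12994 genes. For Acta1 that change was -0.16 (95% interval -0.31 to -0.011, edgeR adjusted p = 0.236) and for Myl2 it was 0.63 (0.074 to 1.19, edgeR adjusted p = 0.212).

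The 2 treatments were then set against each other. At day 6 all 7 members were lower with LA than with ANGPTL4 in all 16 pairs of libraries, and all 7 fell in the test, where 13.9% of all genes were called. How many of all genes were lower in all 16 pairs was not counted. The differences ran from -0.24 for Myl4 (SE 0.0670, edgeR adjusted p = 0.0116) to -0.87 for Myl2 (SE 0.114, edgeR adjusted p = 1.47e-06), with -0.44 for Actc1, -0.41 for Mylpf, -0.40 for Myl1, -0.36 for Acta1 and -0.29 for Myl6b. The Myl4 call was lost without day 6 LA replicate 2 (-0.20, edgeR adjusted p = 0.0852), without day 6 ANGPTL4 replicate 3 (-0.21, edgeR adjusted p = 0.0653) and with library totals alone (-0.21, edgeR adjusted p = 0.0520).

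At day 2 no member was called between LA and ANGPTL4 by edgeR, DESeq2 or limma-voom, and edgeR called 0.0924% of all genes. That was 12 genes, against 159 without day 2 LA replicate 3 and 102 without day 2 ANGPTL4 replicate 4, and still no member. Of the 7 members only Myl2 had an unadjusted p under 0.05, as did 1607 of all 12994 genes. Myl2 had 38, 37, 55 and 16 counts with LA and 30, 15, 25 and 10 with ANGPTL4, which were 1.50, 2.1, 2.16 and 1.64 CPM against 1.46, 1.01, 1.32 and 0.739 CPM (log2 fold change 0.66, 95% interval 0.23 to 1.10, edgeR adjusted p = 0.184). The intervals of the other 6 members ran from -0.20 to 0.18.

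In the order of the 6 groups, Acta1 was highest in day 6 vehicle (3924 ± 172 CPM), then day 6 ANGPTL4 (3733 ± 45.4 CPM), day 6 LA (2907 ± 183 CPM), day 2 ANGPTL4 (2657 ± 97.8 CPM), day 2 LA (2521 ± 78.2 CPM) and day 2 vehicle (2501 ± 167 CPM; SD, n = 4 each). Day 6 vehicle and day 6 ANGPTL4 overlapped, as did day 6 LA with day 2 ANGPTL4 and day 2 vehicle, and the day 2 groups among themselves. Myl1, Myl2, Myl4 and Mylpf had their highest mean in day 6 ANGPTL4. Actc1 had its highest mean in day 2 ANGPTL4 (1431 ± 52.7 CPM) and its lowest in day 6 LA (849 ± 84.0 CPM), and its day 2 groups overlapped.

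The other genes of the sarcomere and of the actin family gave the setting, from lists of named genes. Between day 2 and day 6 in vehicle, 8 of 11 myosin heavy chains and myosin-binding proteins tested rose and 1 fell (Myh3, the embryonic heavy chain, log2 fold change -0.18, edgeR adjusted p = 0.0162), while Mybpc2, fast myosin-binding protein C, rose by 4.13 and the fast heavy chain Myh2 by 2.42. Of 12 troponins and tropomyosins 10 rose and none fell. Of 8 non-sarcomeric actins and light chains none rose and 3 fell, namely Actb (-0.38), the smooth muscle actin Acta2 (-0.45) and the smooth muscle light chain Myl9 (-0.50). Kinases that phosphorylate regulatory light chains rose in 3 of 4 cases, Mylk3 by 1.88, Mylk2 by 1.74 and Mylk by 0.76, and Mylk4 fell by 0.30. Beside these counts, 45.6% of all genes were called in this comparison. Median log2 fold changes of these 4 lists were 1.12, 0.46, -0.15 and 1.25, against 0.019 over all genes.

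With LA at day 6, 8 of the 11 myosin heavy chains and myosin-binding proteins and 8 of the 12 troponins and tropomyosins fell and none rose. The non-sarcomeric actins and light chains had 1 fall in 8, Myl12a (-0.21, edgeR adjusted p = 0.0339), where 17.2% of all genes were called. In that list, cytoplasmic Actb was at -0.025 and Actg1 at 0.030, and neither passed (edgeR adjusted p = 0.875 and 0.871). Of 21 genes for actin filament assembly and thin filament turnover 13 fell and 1 rose. The giant thin filament protein Neb had a log2 fold change of -0.62, the myosin chaperone Unc45b one of -0.49, and Tmod3, which caps actin filaments, one of 0.28. The light chain kinases Mylk2 (-0.42), Mylk3 (-0.47) and Mylk4 (-0.23) fell.

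Regulators of the actin genes were counted from the same kind of lists. Among serum response factor and its partners, Srf itself fell with LA at day 6 (log2 fold change -0.27, edgeR adjusted p = 0.000871), as did its coactivator Mrtfa (-0.21, edgeR adjusted p = 0.0250), and Fhl2 rose (0.32), while 3 of the 6 tested did not pass (17.2% of all genes were called). Of 11 myogenic, MEF2 and TEAD factors 6 fell, among them Tead4 (-0.37), Mef2c (-0.33) and Myog (-0.24), and Myf5 rose (0.40). Over the vehicle course, where 45.6% of all genes were called, 2 of the 6 serum response factor genes rose and 1 fell, and of the 11 factors 3 rose, Myf6 by 2.21 and Mef2c by 1.69 among them, and 4 fell. At day 6 Srf had 59.4 ± 4.03 CPM in vehicle, 49.4 ± 1.50 CPM with LA and 51.8 ± 3.35 CPM with ANGPTL4 (SD, n = 4). It was called neither between LA and ANGPTL4 nor between ANGPTL4 and vehicle at day 6. Srf was called down in the change of the ANGPTL4 effect from day 2 to day 6, where 0.277% of all genes were called. Whether these regulators had a part in the members' levels was not tested.

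Genes most like each member were listed by Pearson r of log2 CPM over the 24 libraries, among 9101 genes with a mean of at least 10 CPM. Acta1 was most like Padi2 (0.984), Ankrd23 (0.982) and Ip6k3 (0.981). Actc1 was most like Pxn (0.938), Mtfr1l (0.938) and Dmwd (0.931). Those of Myl1 were Smpx (0.993), Apobec2 (0.986) and Ccng1 (0.984). Myl4 had Smpx (0.983), Plaat3 (0.981) and Ctsd (0.980) nearest to it. Next to Myl2 were Myh2 (0.986) and Hspb7 (0.984), and next to Mylpf were Tnnc2 (0.968), Pea15a (0.960) and Tnnt1 (0.959). Myl6b was nearest to Ddb1 (0.935), Tmem38a (0.930) and Itga7 (0.927). Among the members, Myl1 and Myl4 had r = 0.987 and Myl1 and Myl2 r = 0.982. These are descriptions over libraries that share the 2 days, and none of them was tested.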

How the data were processed

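QuantSeq 3′ libraries were made from total RNA with an integrity number above 7, per the labels' protocols. The deposited values were raw counts per gene symbol, which the authors had filtered before deposit, per the file's name. Trimmomatic, STAR 2.7.1a, HTSeq 0.9.1, DESeq2, DESeq and build mm39 are named in the submitters' processing notes; their order and settings are not given in the sources used here. Counts were fitted over 24 libraries as 6 group means with edgeR 4.0.16 (R 4.3.3; TMM factors, filterByExpr, robust quasi-likelihood), which removed 1699 genes and left 18 residual degrees of freedom. Benjamini-Hochberg adjustment ran over all 12994 genes. Standard errors are the log2 fold change divided by the square root of F. CPM and SD describe libraries. Ratios used log2 of counts plus 0.5, with exact two-sided permutation tests. Alternatives included DESeq2 1.42.0 and limma-voom (limma 3.58.1). Members and lists were chosen with earlier results of these data known; all members are named, and of each list up to 4 genes, by the highest and lowest log2 fold changes among those called. For likeness the 3 nearest genes were named, except 1 that is not reported here. Actb and Actg1 were named after their values were seen. Promoters came from RefSeq (GRCm38.p6) and overlaps from GENCODE on GRCm38.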

Additional observations from a re-analysis of the deposited data

Results flagged for a closer look

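Sets of 4 values were checked for a value far from the others, each a member's level, a ratio or the summed share in 1 group. Of 66 sets 3 had one, and chance gives about 1 in 20. The sets share libraries, so they are not independent. In day 6 LA, replicate 2 had 1025 CPM of Myl1 where the other 3 libraries had 1161 to 1175 CPM. The same library had 157 CPM of Myl6b where the others had 184 CPM each. In day 6 ANGPTL4, replicate 4 had 208 CPM of Myl6b against 219 to 221 CPM in the other libraries.

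The effect of LA differed between the days for 6 of the 7 members, by a test of the difference itself in edgeR, which called 19.7% of all genes. The change in log2 fold change from day 2 to day 6 was -0.44 for Acta1, -0.52 for Actc1 and -0.32 for Myl1. It was -0.90 for Myl2, -0.52 for Mylpf and -0.39 for Myl6b. The Myl2 call was lost without day 2 LA replicate 3 (-0.77, edgeR adjusted p = 0.0509) and without both libraries that stood apart (-0.78, edgeR adjusted p = 0.0508).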

How the results depend on the processing

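No called member changed sign in any alternative, and 7 member results that were not called, all near 0, took the other sign in some. The count of members called kept within 1.5 times its value in 92 of the recalculations under other settings and moved further in 4. Among those that left out a library, the count kept within that range in 100 and moved further in 4. The count was also scored as kept where it stayed at 0. For LA against vehicle at day 2 it went from 1 to 0 with only the compared groups fitted and without the 2 libraries that stood apart, an alternative chosen after seeing the data, and ranged from 0 to 1 on leaving out a library (0 without day 2 vehicle replicates 3 or 4 or day 2 LA replicates 2 or 3). For ANGPTL4 against vehicle it went from 0 to 1 at day 2 with library totals alone and from 0 to 1 at day 6 with only the compared groups fitted. The cause was not tested. Recalculations of a single member lost its call 16 times and gained one 4 times. Of 36 same-numbered pairs of libraries, 5 had r over 0.1 (range -0.17 to 0.18) after each group's mean was removed. Pairs with different numbers were not set beside them, so this cannot decide whether the numbers mark a shared culture or day. With a replicate block the members called stayed 7 in the vehicle course and 6 in LA against vehicle at day 6. DESeq2 gave no adjusted p for 2 Myl2 results. Counts over all genes moved more. LA against vehicle at day 2 called 1961 genes, 422 with only the compared groups and 632 without day 2 LA replicate 3, and ANGPTL4 against vehicle at day 2 called 1276, 685 with only the compared groups. ANGPTL4 against vehicle at day 6 called 3 genes, 87 with DESeq2 and 0 with the block, LA against ANGPTL4 at day 2 called 12, 35 with DESeq2 and 363 without day 2 LA replicate 4, and the change of the ANGPTL4 effect called 36, 381 with DESeq2 and 0 with the block. None of the 36 exact tests on 4 against 4 libraries passed after adjustment, and Myl2 at day 2 rested on 9 to 55 counts.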
